A study of Homo sapiens with 3 samples.

Results

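Midkine (MDK) and pleiotrophin (PTN) are secreted growth factors, and they were examined together with the receptors PTPRZ1, ALK, LTK, LRP1 and NCL. These 7 genes are a fixed list, taken by symbol from an expression table of 62754 genes. The data are RNA-seq libraries of polyadenylated RNA from cultured primitive neural progenitors (pNPCs), an early and dividing neural stage. There is 1 group, pNPC WT, with 3 replicates, all from H1 cells, an established human embryonic stem cell line, so the values describe 1 line and no genotype or treatment was compared. All 3 had the same medium, Neurobasal with GlutaMax mixed with DMEM/F12 and supplemented with N2 and B27-RA. It held the growth factor FGF2 at 20 ng/ml, the WNT pathway activator CHIR99021 at 3 µM, human leukemia inhibitory factor at 10 ng/ml, the TGF-beta receptor inhibitor SB431542 at 2 µM and the ROCK inhibitor Y-27632 at 10 µM.

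MDK and PTN are the members of a small family of heparin-binding, basic proteins that are abundant in the developing nervous system. Both bind PTPRZ1, a receptor-type tyrosine phosphatase whose outer part carries chondroitin sulfate chains, and binding is known to lower its phosphatase activity. ALK and its closest relative LTK are receptor tyrosine kinases, and LRP1 is a large endocytic receptor that takes up many ligands. NCL encodes nucleolin, mainly a nucleolar protein of ribosome production, part of which is also found at the cell surface, where it binds both ligands.

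The libraries held 30038114 to 38400092 expected counts, and replicates 2 and 3 were the closest pair. The chi-square of counts between them was 19.4 per degree of freedom, against 82.4 and 82.5 for the pairs with replicate 1. Of 11 neural progenitor markers 9 were detected, which here means that their TPM, a level relative to transcript length and sequencing depth, was 1 or more in each library. Of all protein-coding genes 62.2% were detected. VIM, NES and ZIC2 were the highest of these markers, and PAX6, at 0.44 ± 0.34 TPM, and HES5 the exceptions (mean ± SD, n = 3, here and for all values given with ±). Of 10 neural crest markers 9 were detected, with TFAP2B, TFAP2A and SOX9 highest and FOXD3 and the undetected RET lowest. All 9 mesenchyme markers were detected, with COL1A2, PRRX1 and TWIST1 highest and PDGFRA and COL1A1 lowest. All 11 neuronal markers were detected, with TUBB3, NEFM and GAP43 highest and SYT1 and SNAP25 lowest, but 4 of the 11 at a TPM minimum of 5. Of 10 markers of astrocytes and radial glia 5 were detected, with GJA1, SLC1A3 and TNC highest and AQP4 and HOPX lowest. Of 8 pluripotency markers 1 was detected, DPPA4, followed by KLF4 and POU5F1, with GDF3, PRDM14 and TDGF1 at 0 in all 3 libraries. In bulk RNA fewer cells of a type and less RNA per cell cannot be told apart, and no level below can be assigned to a cell type.

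The stretches of DNA just before the start of PTN and of receptors at very different levels are shown first, for reference beside those levels. They are the 250 bases upstream of the start on the gene's own strand, from RefSeq's promoter table of GRCh38.p14, which matched 6 of the 7 genes, all but MDK. Capitals mark GC boxes (GGGCGG or its reverse complement CCGCCC) and CCAAT boxes (CCAAT or ATTGG), and no 2 marked motifs overlap.
PTN, chr7:137343734-137343983, minus strand: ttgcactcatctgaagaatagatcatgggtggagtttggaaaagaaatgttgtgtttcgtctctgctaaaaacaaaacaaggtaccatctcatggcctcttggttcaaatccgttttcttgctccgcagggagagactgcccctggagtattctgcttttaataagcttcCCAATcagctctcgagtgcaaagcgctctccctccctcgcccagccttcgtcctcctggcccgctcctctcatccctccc
PTPRZ1, chr7:121872911-121873160, plus strand: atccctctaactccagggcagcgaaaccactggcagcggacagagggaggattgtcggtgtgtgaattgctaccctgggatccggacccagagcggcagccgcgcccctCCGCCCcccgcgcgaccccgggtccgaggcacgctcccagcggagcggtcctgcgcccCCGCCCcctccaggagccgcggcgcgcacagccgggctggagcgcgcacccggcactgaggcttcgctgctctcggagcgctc
ALK, chr2:29921587-29921836, minus strand: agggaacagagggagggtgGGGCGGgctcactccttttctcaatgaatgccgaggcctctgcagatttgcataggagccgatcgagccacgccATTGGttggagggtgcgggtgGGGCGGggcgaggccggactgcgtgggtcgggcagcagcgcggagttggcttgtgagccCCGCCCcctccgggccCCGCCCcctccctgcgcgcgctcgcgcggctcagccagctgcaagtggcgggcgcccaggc
LTK, chr15:41513828-41514077, minus strand: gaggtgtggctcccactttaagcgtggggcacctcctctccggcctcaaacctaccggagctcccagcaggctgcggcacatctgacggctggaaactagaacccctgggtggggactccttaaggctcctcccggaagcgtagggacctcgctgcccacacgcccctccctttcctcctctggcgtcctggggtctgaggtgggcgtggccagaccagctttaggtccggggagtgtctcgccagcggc

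The PTN stretch had a GC content of 50.4% with 8 CpG dinucleotides and no GC box, and that of PTPRZ1 had 73.2%, 29 CpG and 2 GC boxes. ALK had 71.6%, 24 CpG and 4 GC boxes, and LTK 66.0%, 14 CpG and no GC box. LRP1 and NCL, not printed, had 67.6% and 72.0%, with 1 and 2 GC boxes. Over 35116 upstream stretches of the same length the median GC content was 58.0%, 42.6% held a GC box and 32.0% a CCAAT box. A TATA box (TATAAA or TTTATA) was in 10.7% of all stretches and in none of the 6. ALK had the most GC boxes of the 6 and the second-lowest of the transcript levels given below. A relation between boxes and levels was not tested.

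Both ligands were abundant, and MDK was the higher in each library. MDK (ENSG00000110492.17, chromosome 11, 46380784 to 46383837, GRCh38) had 1888, 1896 and 1867 TPM in replicates 1, 2 and 3, from 30179, 28844 and 22044 expected counts. The 3 TPM values lay within 1.02-fold of each other. In counts scaled to library size (CPM), without length scaling, MDK varied more, at 871, 751 and 734 in replicates 1, 2 and 3. The mean of 1884 ± 14.8 TPM placed MDK at rank 88 of 19855 protein-coding genes. The last 49 bases of MDK overlap CHRM4, a muscarinic receptor gene with 11 to 61 expected counts, and the files do not say whether counting used strand. The protein-coding genes nearest to MDK in level, by the sum over the 3 libraries of absolute differences in log2(TPM + 1), were RPS7 (0.16), STMN1 (0.22) and RPLP2 (0.26). RPS7 and RPLP2 encode ribosomal proteins and have near-identical copies in the genome, which makes their own levels uncertain, and STMN1 encodes stathmin, a tubulin-binding protein.

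PTN (ENSG00000105894.13, chromosome 7, 137227341 to 137343733) had 301, 248 and 191 TPM in replicates 1, 2 and 3, from 9574, 7816 and 4676 expected counts. Replicate 1 was highest and replicate 3 lowest, a 1.58-fold range. The mean was 247 ± 55.1 TPM, at rank 523 of the protein-coding genes. The nearest genes in level were UQCRB (0.22), GNG5 (0.24) and ATP5MJ (0.26), of which UQCRB and ATP5MJ encode mitochondrial respiratory proteins. Likeness over 3 libraries of 1 group is mostly likeness of level.

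The TPM ratio of MDK over PTN was 6.27, 7.66 and 9.77 in replicates 1, 2 and 3, so MDK made up 86.2%, 88.4% and 90.7% of the TPM of the 2 ligands. Their sum, most of it MDK, was 2189, 2143 and 2058 TPM in replicates 1, 2 and 3. On the log2(TPM + 1) scale MDK exceeded PTN by 2.95 ± 0.32, with the same sign in 3 of 3 libraries. The exact two-sided sign-flip permutation test gave p = 0.25, the smallest that n = 3 allows, and 0.30 after Benjamini-Hochberg adjustment over the 6 pairs compared. The scale matters for the size, because MDK transcripts are short (839 to 846 bases, against 1468 bases for PTN). In expected counts, without length scaling, the ratio of MDK over PTN was 3.15, 3.69 and 4.71.

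**Figure D1:**
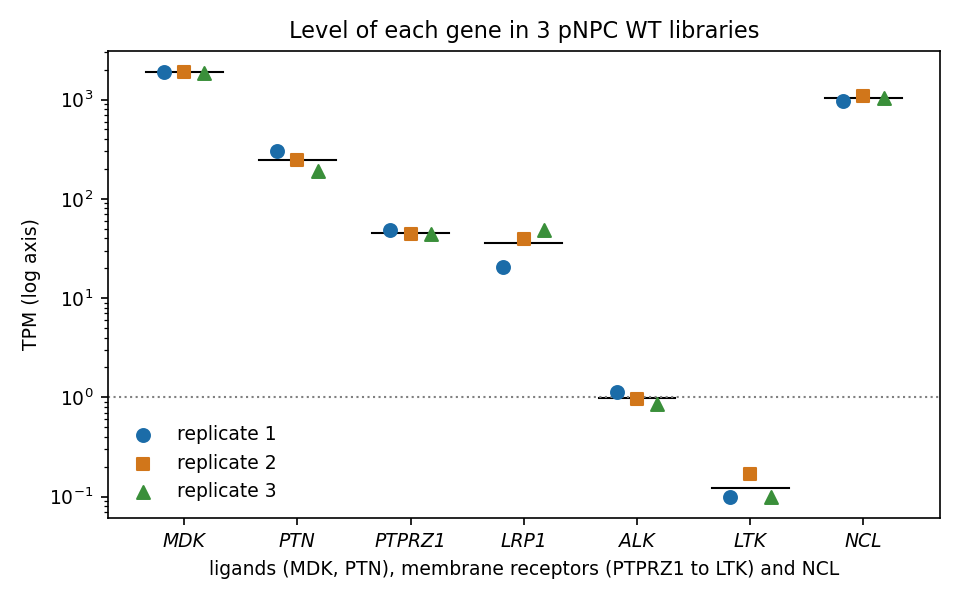
TPM (log axis) of the ligands MDK and PTN, the membrane receptors PTPRZ1, LRP1, ALK and LTK, and NCL in each of the 3 pNPC WT libraries. Points are libraries, black bars are means (n = 3) and the dotted line is 1 TPM. MDK lies between 1867 and 1896 TPM, PTPRZ1 between 43.8 and 48.0 TPM, and the points of LRP1 are the most spread of the detected genes, with replicate 1 lowest.

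Among the membrane receptors, PTPRZ1 and LRP1 were expressed at moderate levels, ALK lay near 1 TPM and LTK near 0.1 TPM. PTPRZ1 (ENSG00000106278.12, chromosome 7, 121873161 to 122062036) had 48.0, 44.4 and 43.8 TPM in replicates 1, 2 and 3, from 4878, 5274 and 4264 expected counts. With a mean of 45.4 ± 2.25 TPM it varied little, within 1.10-fold. The nearest protein-coding genes in level were EFNA4 (0.050), an ephrin ligand gene, EVA1B (0.057) and GOLPH3 (0.075), a Golgi protein gene.

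LRP1 (ENSG00000123384.14, chromosome 12, 57128483 to 57213361) had 20.5, 39.4 and 48.9 TPM in replicates 1, 2 and 3, from 3500, 10274 and 9496 expected counts. Replicate 1 was lowest, at 0.465 times the mean TPM of the other libraries, and the mean was 36.3 ± 14.4 TPM. The antisense gene LRP1-AS and the microRNA gene MIR1228, both within the bounds of LRP1, had 0 counts in all 3 libraries.

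ALK (ENSG00000171094.18, chromosome 2, 29192774 to 29921586) had 1.14, 0.96 and 0.86 TPM in replicates 1, 2 and 3. These rest on 107, 88 and 73 expected counts, with exact Poisson 95% intervals of 87.7 to 129, 70.6 to 108 and 57.2 to 91.8 counts that cover counting error only. The 3 TPM values lay within 1.33-fold of each other, and with replicates 2 and 3 under 1 TPM ALK is not counted as detected. LTK (ENSG00000062524.16, chromosome 15, 41503637 to 41513827) had 0.10, 0.17 and 0.10 TPM, from 7, 11 and 4 expected counts. The counting intervals of its TPM, 0.0402 to 0.206, 0.0849 to 0.304 and 0.0272 to 0.256, do not reach the interval of ALK in any library.

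The share of each receptor in the summed TPM of the 4 membrane receptors shifted between libraries. PTPRZ1 made up 68.8%, 52.3% and 46.8% in replicates 1, 2 and 3, and LRP1 made up 29.4%, 46.4% and 52.2%. ALK took 0.918% to 1.63% and LTK 0.107% to 0.200%. The leading receptor was thus PTPRZ1 in replicates 1 and 2 and LRP1 in replicate 3. PTPRZ1 minus LRP1 on the log2(TPM + 1) scale was 1.19, 0.17 and -0.16, a mean of 0.40 ± 0.70 that lay within the spread between replicates (p = 0.50 in the exact sign-flip permutation test, two-sided, adjusted 0.50). The mean was 0.007 without replicate 1 and 0.68 without replicate 3, and in CPM (counts scaled to library size), without length scaling, it turned to -0.54.

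The other receptor pairs kept their order in 3 of 3 libraries. PTPRZ1 exceeded ALK by 4.55 ± 0.04 on the log2(TPM + 1) scale, a TPM ratio of 42.1, 46.3 and 50.9. LRP1 exceeded ALK by 4.15 ± 0.73, and ALK exceeded LTK by 0.82 ± 0.12, a scale that understates differences of such low genes. Their TPM ratio was 11.4, 5.65 and 8.60. For each, the exact sign-flip permutation test gave the smallest p it can give here, 0.25 (adjusted 0.30).

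**Figure D2:**
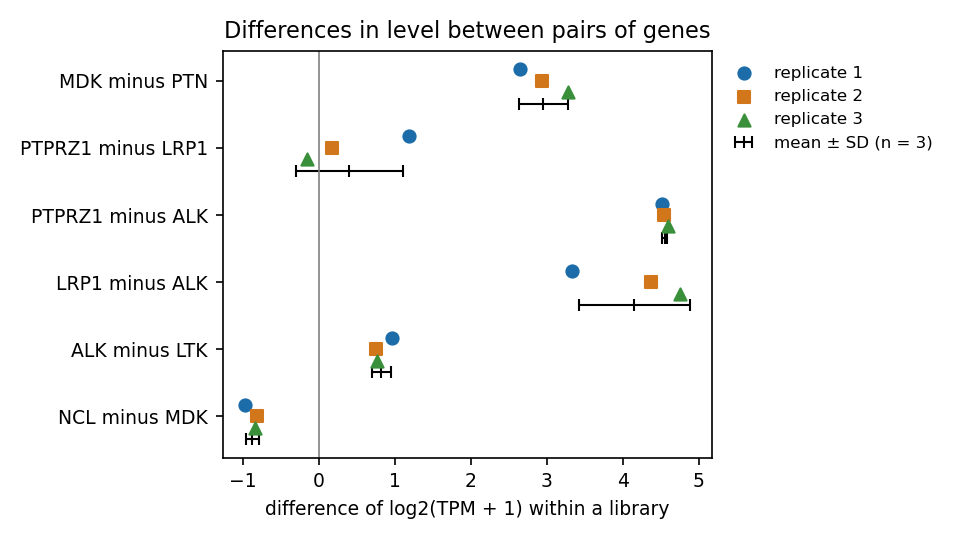
Differences of log2(TPM + 1) between pairs of genes within each library. Coloured points are libraries and black bars are mean ± SD (n = 3). In 5 of the 6 pairs all libraries lie on the same side of 0, and PTPRZ1 minus LRP1 spans 0, from 1.19 in replicate 1 to -0.16 in replicate 3.

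NCL (ENSG00000115053.17, chromosome 2, 231453531 to 231464484) had 960, 1081 and 1043 TPM in replicates 1, 2 and 3, with a mean of 1028 ± 62.3 TPM at rank 138 of the protein-coding genes. It had the most reads of the 7 genes, 58598, 66232 and 49740 expected counts. NCL minus MDK was -0.88 ± 0.09 on the log2(TPM + 1) scale (p = 0.25 in the exact sign-flip permutation test, two-sided, adjusted 0.30), and it turned to 1.11 in CPM, since NCL transcripts are longer (2609 to 2621 bases). The introns of NCL hold the small nucleolar RNA genes SNORD20, SNORD82 and SNORA75, which were listed at 0. With an effective length of 0 for SNORD20 and SNORD82 and 4.08 bases for SNORA75 in replicate 1, these libraries could hardly have measured them. Of 5 other nucleolar protein genes all 5 were detected. They were led by NPM1 at 3198 ± 153 TPM, which has processed copies that make its level uncertain, the methyltransferase FBL at 625 ± 56.6 TPM and NOP56 at 464 ± 50.4 TPM, and the lowest was UBTF at 80.8 ± 11.3 TPM.

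Of the 7 genes 5 were detected, all but ALK and LTK, against 62.2% of protein-coding genes and 23.0% of all genes. In order of mean TPM the genes ran MDK, NCL, PTN, PTPRZ1, LRP1, ALK and LTK. PTPRZ1 and LRP1 were the only neighbours in this order whose TPM ranges over the 3 libraries overlapped.

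Variation among the replicates was then compared with that of all genes. A negative binomial fit in edgeR tested 17046 genes for more spread than other genes of like level and called 271, or 1.59%, at a Benjamini-Hochberg adjusted p under 0.05. With 1 library left out it called 117 without replicate 1, 95 without replicate 2 and 103 without replicate 3. Each run estimated the spread of genes anew, so calls of different runs rest on different yardsticks. The common biological coefficient of variation was 22.6% with all 3 libraries and 14.0% without replicate 1. It was 26.6% without replicate 2 and 24.8% without replicate 3. Of the 6 genes tested here (LTK had too few counts) 1 was called, LRP1 (edgeR adjusted p = 0.0093). PTN followed at an adjusted p of 0.84, with an unadjusted p of 0.077, and MDK, PTPRZ1, ALK and NCL each had an adjusted p above 0.99. LRP1 was no longer called in edgeR when any library was left out, with adjusted p of 1.00 without replicate 1, 0.078 without replicate 2 and 0.12 without replicate 3.

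The difference of LRP1 in replicate 1 was larger in reads than in TPM. Its CPM was 101, 268 and 316 in replicates 1, 2 and 3, so replicate 1 had 0.346 times the mean of the others. At the same time its estimated mean transcript length, which RSEM weights by the abundance of each transcript, was 6930 bases in replicate 1, 10287 in replicate 2 and 9849 in replicate 3. The longest of its 12 transcripts has 14897 bases in the GENCODE 29 annotation and the next 5114. On those lengths, each of the estimated means includes reads assigned to the longest one. The annotation release behind the deposited estimates is not given. For PTPRZ1 the estimated length was also lowest in replicate 1, at 4220, 4818 and 5069 bases, while its CPM was 141, 137 and 142.

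Replicate 1 also differed in effective length, the length by which TPM is scaled. For MDK it lay 216 bases under the transcript length in replicate 1, 253 in replicate 2 and 259 in replicate 3. Across all genes, long transcripts had fewer reads in replicate 1. The median deviation of replicate 1 from the mean of the others was -0.75 log2 CPM for 459 genes of at least 8000 bases, against 0.29 for 1715 genes under 1000 bases. LRP1 deviated by -1.51, and 42 of those 459 long genes (9.15%) deviated as far or farther down, against 1.38% of all genes tested. With a smooth trend on length removed, a step chosen after the data were seen, LRP1 stood at -0.82. ALK then had the highest deviation of the 6 genes, 0.59 (0.40 before), above PTN at 0.50 (0.65 before) and PTPRZ1 at 0.31 (0.03 before). The ALK value rests on only 107, 88 and 73 expected counts in replicates 1, 2 and 3, so its place above PTN is uncertain. MDK came to 0.00 (0.25 before), and NCL stayed at 0.02. Markers of several cell types moved with replicate 1 as well. Mesenchyme markers were low there, with a summed level of 667, 1408 and 991 TPM in replicates 1, 2 and 3, 8 of 9 members lowest in replicate 1 and none at 0. Their median deviation was -0.74 log2 CPM, and -0.63 with the length trend removed. Neuronal markers were high, with 1105, 693 and 625 TPM, 7 of 11 highest in replicate 1 and none at 0, and a median deviation of 0.74 (0.78 with the trend removed). Their sum was mostly that of TUBB3 and NEFM, and 2 of the 11 were lowest in replicate 1. Neural progenitor markers had as high a median deviation, 0.77 (0.65 with the trend removed), with 5 of the 9 detected highest in replicate 1 and none at 0. Their summed level, 2694, 2771 and 2409 TPM, was mostly that of VIM. The median deviation was -0.17 for neural crest markers, -0.06 for those of astrocytes and radial glia (HOPX at 0) and 0.09 for the 2 pluripotency markers tested. How many of all detected genes were lowest or highest in replicate 1 was not counted, so the counts of such markers have no share to stand against.

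Of the 48 marker genes tested, 7 were called for excess spread by edgeR, against 1.59% of all genes. Of the neural progenitor markers, the transcription factor genes SOX3 (adjusted p = 0.011) and HES5 (0.0034) were called, with 85.8, 36.1 and 42.0 TPM for SOX3 and 6.76, 0.72 and 5.66 TPM for HES5 in replicates 1, 2 and 3. Of the neuronal markers, the neurofilament gene NEFM (edgeR adjusted p = 0.0050), STMN2 (0.0049) and ELAVL4 (0.0088) were called, and of the mesenchyme markers the receptor gene PDGFRA (0.000325) and the collagen gene COL1A1 (0.0097). The 5 neural genes were highest and both mesenchyme genes lowest in replicate 1. For HES5, though, the library that stood apart was replicate 2, with 20 expected counts against 190 in replicate 1 and 122 in replicate 3. In edgeR without replicate 1 HES5 and COL1A1 were still called (adjusted p 0.0015 and 0.013), without replicate 2 PDGFRA was (0.025), and without replicate 3 all but SOX3 and NEFM were (0.0077 to 0.031). Other markers, not called with all 3 libraries, were called in edgeR without replicate 1. They were COL3A1 (adjusted p = 9.9e-06), TNC (0.00084), LUM (0.0024), DCX (0.013) and GJA1 (0.027). Markers thus differed between replicates 2 and 3 too, measured against the smaller spread of genes estimated in that run. The part of transcript length, of effective length and of mesenchyme, neuronal and neural progenitor RNA in the levels of LRP1 and PTN was not tested.

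**Figure D3:**
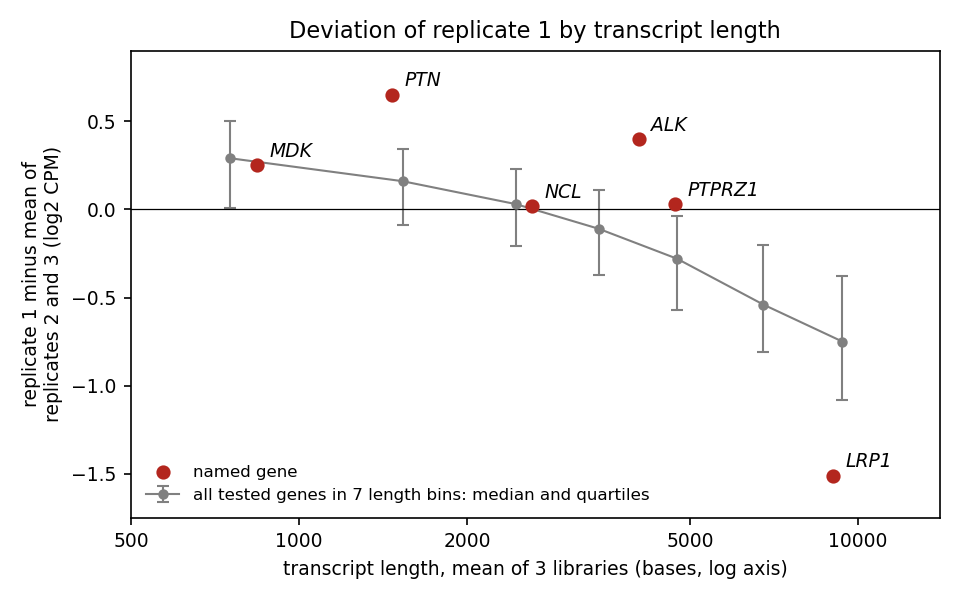
Deviation of replicate 1 from the mean of replicates 2 and 3 (log2 CPM) against transcript length (bases, log axis). Grey points and bars are the median and quartiles of all tested genes in 7 length bins, and red points are the 6 genes tested here. The grey medians go from 0.29 in the shortest bin to -0.75 in the longest, LRP1 lies under that line at -1.51, and PTN, ALK and PTPRZ1 lie above it.

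Of the genes around the ligands and receptors 71 of 82 in 8 lists were detected, against 62.2% of protein-coding genes and 23.0% of all genes, and the counts of each list below stand against the same shares. Of 17 other proteins that bind midkine or pleiotrophin or are proposed to, 16 were detected. The highest were the integrin subunit ITGB1 at 213 ± 49.0 TPM, the chondroitin sulfate proteoglycan VCAN at 182 ± 77.1 TPM and the heparan sulfate proteoglycan SDC2 at 132 ± 31.0 TPM. NCAN, a proteoglycan of brain matrix, was the lowest detected at 1.96 ± 0.98 TPM, and the integrin subunit ITGB3, at 0.27 ± 0.15 TPM, was not. All 4 syndecans were thus detected, with SDC4 the lowest of them at 19.2 ± 5.03 TPM, named after its values were seen.

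Of 8 genes for relatives and adhesion partners of PTPRZ1 6 were detected, led by the matrix protein TNC at 32.4 ± 13.3 TPM and the adhesion molecules L1CAM at 29.3 ± 2.92 and NCAM1 at 23.7 ± 4.89 TPM. CNTN1, a contactin that binds PTPRZ1, stood at 0.16 ± 0.08 TPM and TNR, a tenascin of later brain, at 0.063 ± 0.059 TPM. The PTPRZ1 substrates and related proteins were all detected, 8 of 8, with CTNNB1, which encodes beta-catenin, at 339 ± 31.0 TPM, the adducin ADD1 at 144 ± 19.7 TPM and the kinase FYN at 92.4 ± 2.36 TPM. The lowest were MAGI1 at 15.7 ± 3.91 and ADD2 at 8.73 ± 0.36 TPM.

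For ALK and LTK the ligand side was more abundant than the receptors. ALKAL2, an activating ligand of both kinases, is named here for its values. Its TPM was 50.8 in replicate 1, 38.5 in replicate 2 and 32.8 in replicate 3. The related ALKAL1 had 0, 2 and 0 expected counts. The signalling proteins PLCG1 at 206 ± 52.8, SHC1 at 184 ± 35.3 and PTPN11 at 48.8 ± 14.3 TPM were the highest of this list, in which 8 of 9 genes were detected, and the receptor substrate IRS1 was the lowest detected at 6.96 ± 2.84 TPM.

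Of 12 genes for relatives of LRP1 and their chaperone 11 were detected. The chaperone LRPAP1, which protects LRP1 from binding ligands on its way to the cell surface, stood at 123 ± 12.1 TPM, above the TPM of LRP1 in each library. In expected counts, without length scaling, it had 4560, 4426 and 2989 in replicates 1, 2 and 3, below LRP1 in replicates 2 and 3. The receptors LRP8 at 35.6 ± 12.5 and LRP11 at 23.1 ± 1.02 TPM followed, SORL1 was the lowest detected at 4.29 ± 1.80 TPM, and LRP1B was not detected at 0.71 ± 0.30 TPM. In replicate 1, 8 of the 11 detected members had their lowest TPM, a count that also has no share of all genes to stand against. The median member deviated by -0.63 log2 CPM there, and by -0.34 with the length trend removed, and none of these 12 genes was called for excess spread by edgeR.

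Of 20 enzymes of chondroitin sulfate synthesis, the chains through which PTPRZ1 binds both ligands, 17 were detected. The linker enzymes B3GAT3 at 68.7 ± 2.24 and B3GALT6 at 40.7 ± 8.75 TPM and the chain polymerase CHSY1 at 38.5 ± 7.66 TPM were the highest. CSGALNACT1 at 0.34 ± 0.04 and CHST13 at 0.20 ± 0.13 TPM were the lowest. CHST15, which adds the second sulfate of the highly sulfated unit known to bind midkine and pleiotrophin, stood at 9.95 ± 1.97 TPM. CHST11, an enzyme that can place the first sulfate but not the only such enzyme, stood at 6.62 ± 1.3 TPM. Both are named after their values were seen.

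Excess spread was called by edgeR for 3 of the 75 tested genes of these lists, against 1.59% of all genes. They were the xylosyltransferase XYLT1 (adjusted p = 0.00010) with 1.18, 6.12 and 4.96 TPM in replicates 1, 2 and 3, VCAN (adjusted p = 0.014) with 93.4, 217 and 235 TPM, and the receptor NOTCH2 (adjusted p = 0.031) with 22.1, 63.8 and 61.7 TPM. Each was lowest in replicate 1, as LRP1 was, and NOTCH2 shares sequence with the NOTCH2NL genes, so its level is uncertain. The estimated transcript length in replicates 1, 2 and 3 was 9970, 9970 and 9813 bases for XYLT1 and 10770, 11086 and 10557 bases for NOTCH2. For VCAN it was lowest in replicate 1, at 5540, 6967 and 6968 bases. In edgeR none of the 3 was called without replicate 1 (adjusted p = 0.9999 each) or without replicate 2 (adjusted p 0.061 to 0.31). Without replicate 3 XYLT1 was called (edgeR adjusted p = 0.0014) and VCAN and NOTCH2 were not (0.10 and 0.093). TNC, not called with all 3 libraries, was called in edgeR without replicate 1 (adjusted p = 0.00084). Its TPM was 24.0, 47.7 and 25.4 in replicates 1, 2 and 3.

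**Figure D4:**
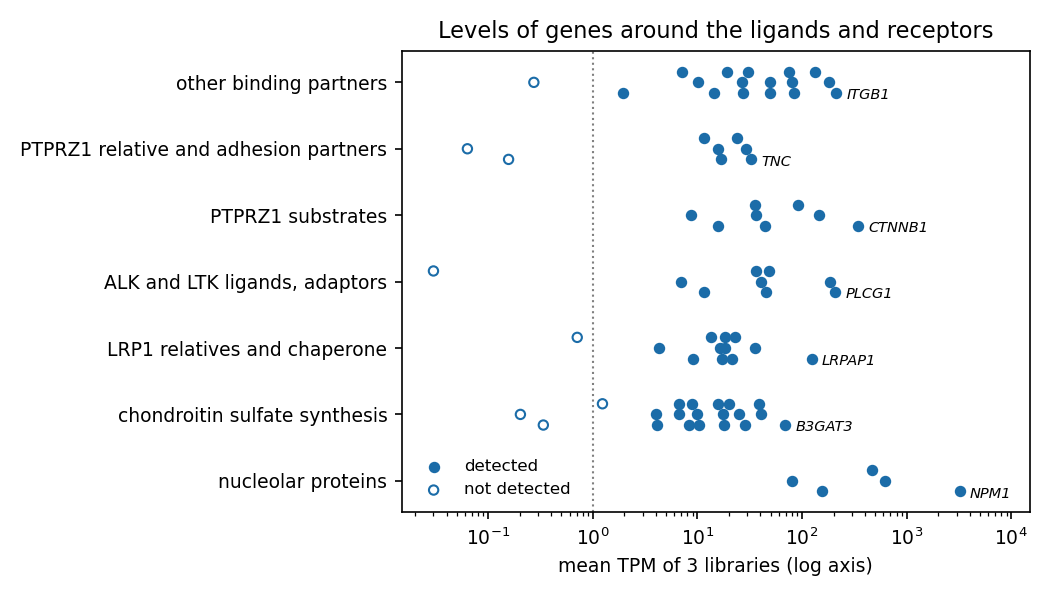
Mean TPM over 3 libraries (log axis) of the genes of 7 lists around the ligands and receptors, with the highest gene of each list named. Filled points were detected (TPM of at least 1 in all 3 libraries, dotted line at 1) and open points were not. ITGB1 leads the other binding partners at 213 TPM, and NPM1, at 3198 TPM, is the highest point.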

How the data were processed

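Per the file headers, each of the 3 samples has an RSEM gene table. The tools in the submitters' processing notes are RSEM 1.3.1, STAR 2.7.11a and Trim Galore 0.6.10, and the build is GRCh38, without role or order. Read layout, strandedness and annotation release are not given in these sources. The deposited expected counts are estimated reads per gene, not normalized. Deposited TPM had been scaled for effective length by the authors, and the deposited FPKM values were used in an alternative. Length and effective length are the authors' deposited estimates, weighted over a gene's transcripts.

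The 7 genes and the lists were chosen with earlier results of these data known. Of each list the 3 highest and up to 2 lowest genes by mean TPM (ties by alphabet) are named, with genes called for excess spread, and 1 list gene is not reported here. Replicates may be technical, since the labels name no separate cultures, so a p-value covers the spread between these samples and no more. Differences of log2(TPM + 1), a pseudocount of 1, were tested by exact sign-flip permutation over 3 libraries. The spread of replicates was tested with edgeR 4.0.16 in R 4.3.3. Expected counts, rounded to whole numbers, entered with TMM scaling, filterByExpr and an intercept-only fit, by residual deviance at the trended dispersion against a chi-square with 2 degrees of freedom, and the script was tested on simulated data. DESeq2 1.42.0 served as an alternative. The length trend was a lowess fit (statsmodels 0.14.6, span 30%) of log2 CPM deviations. Gene types came from GENCODE 29, matched without version for 92.8% of identifiers, and coordinates from RefSeq GRCh38.p14.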

Additional observations from a re-analysis of the deposited data

How the results depend on the processing

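The order of MDK over PTN, PTPRZ1 over ALK, LRP1 over ALK and ALK over LTK held with a pseudocount of 0.1, in FPKM, in CPM and without each replicate. PTPRZ1 minus LRP1 reversed in CPM (-0.54) and ranged from 0.007 to 0.68 without one replicate, and NCL minus MDK reversed in CPM (1.11), since CPM is not scaled for length. Sizes moved too, with MDK minus PTN at 1.92 in CPM and ALK minus LTK at 2.29 with a pseudocount of 0.1. The number of genes with excess spread was 271, 270 with DESeq2 size factors in edgeR, 270 with the size factors and the dispersion trend of DESeq2 together, 300 without a filter and 95 to 117 without one replicate, where fewer samples were fitted. LRP1 was called in the first 4 of these (adjusted p 0.0068 to 0.015). Of the 7 genes 6 were detected at a TPM minimum of 0.5, and ALK is the one added. Of the neuronal markers 4 of 11 were detected at a TPM minimum of 5. No paired analysis was possible because there is 1 group. ALK and LTK counts limit what can be said of their differences between libraries.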
